A study of Mus musculus with 23 samples.

Results

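Genes of fatty acid oxidation, fatty acid handling and PPAR signalling were followed in mouse *longissimus dorsi* (LD), a paraspinal muscle, and in tongue (TN). The list held 10 genes: Acot1, Acot2, Plin5, Angptl4, Pdk4, Ucp3, Cpt1b, Acadm, Hadha and Acads. A probe set, the group of oligonucleotides that measures a transcript on the array, was taken when the platform annotation named exactly 1 of them. This gave 11 of 22626 probe sets and 9 of the 10 genes, out of 12393 genes that a probe set names alone. Angptl4 and Ucp3 had 2 probe sets each, and Cpt1b, the muscle isoform of carnitine palmitoyltransferase I, lay only on a probe set that names 3 genes, so that no value is given for it.

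Total RNA of 23 muscle samples was hybridized to Affymetrix mouse arrays, 1 array per sample. All mice were male, of a strain given as C57/BL6 in the labels and as C57BL/N6 in the study's methods. BF mice had been flown for 30 days aboard the Bion M1 biosatellite (LD n = 5, TN n = 3). FC mice stayed in a standard animal facility while the flight lasted (LD n = 5, TN n = 2). BG mice lived on the ground in a copy of the biosatellite habitat (LD n = 5, TN n = 3). BF muscle was sampled hours after landing and not in orbit, so that reentry and the time after landing cannot be told apart from flight. The labels do not say whether LD and TN came from the same mice. Whole muscle was measured, and in such samples fewer cells of a type and less RNA per cell cannot be told apart. Values are log2 expression, on which a difference of 1 is a 2-fold change, and levels are compared within a probe set only.

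Muscle takes up fatty acids, stores them as triglyceride in lipid droplets or carries them into the mitochondrion, where beta oxidation shortens them step by step to acetyl-CoA. The peroxisome proliferator-activated receptors (PPARs) are nuclear receptors that bind fatty acids and their derivatives, pair with the retinoid X receptors (RXRs) and raise the transcription of many genes of this route. Fasting, exercise and glucocorticoids are known to raise several of these genes in muscle, among them Pdk4, Angptl4 and Ucp3.

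The genomic sequence upstream of the members was taken from RefSeq (build GRCm38.p6). Windows of 300 bases, 250 before and 50 after the transcription start, were found for 8 of the 10 genes (9 windows, since Plin5 had 2). Angptl4 and Cpt1b had none. PPAR and RXR bind, as a pair, a direct repeat of AGGTCA with 1 base between the copies. With up to 2 mismatches on either strand, this repeat was found in 1 of the 9 windows, that of Ucp3, and in 3.86% of all 32851 windows of the same length. The single motif AGGTCA, which every exact repeat also contains, was found on either strand in 4 of the 9 windows and in 16.3% of all windows. The 250 bases before the start are shown for Acot2 and Acot1, neighbouring genes on chromosome 12 that were both higher in flown LD, for Plin5, the third such gene, and for Ucp3, which holds the repeat. Each is written 5′ to 3′ on the strand of its gene, and capitals mark each AGGTCA and the repeat.
Acot2, chr12:83987611-83987860, plus strand: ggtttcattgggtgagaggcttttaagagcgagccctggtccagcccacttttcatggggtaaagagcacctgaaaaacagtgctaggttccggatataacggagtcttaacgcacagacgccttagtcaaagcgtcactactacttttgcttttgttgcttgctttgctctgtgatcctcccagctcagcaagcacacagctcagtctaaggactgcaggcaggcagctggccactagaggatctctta
Acot1, chr12:84009252-84009501, plus strand: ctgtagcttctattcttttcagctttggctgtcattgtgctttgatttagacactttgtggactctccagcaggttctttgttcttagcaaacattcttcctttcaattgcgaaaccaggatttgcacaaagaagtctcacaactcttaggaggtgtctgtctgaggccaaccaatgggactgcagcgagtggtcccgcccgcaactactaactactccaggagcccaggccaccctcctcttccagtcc
Plin5, chr17:56117549-56117798, minus strand: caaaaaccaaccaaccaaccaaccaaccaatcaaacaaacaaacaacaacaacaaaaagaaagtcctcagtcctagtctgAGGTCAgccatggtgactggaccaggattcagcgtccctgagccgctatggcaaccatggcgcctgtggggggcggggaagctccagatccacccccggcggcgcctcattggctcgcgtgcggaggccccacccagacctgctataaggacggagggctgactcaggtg
Ucp3, chr7:100472741-100472990, plus strand: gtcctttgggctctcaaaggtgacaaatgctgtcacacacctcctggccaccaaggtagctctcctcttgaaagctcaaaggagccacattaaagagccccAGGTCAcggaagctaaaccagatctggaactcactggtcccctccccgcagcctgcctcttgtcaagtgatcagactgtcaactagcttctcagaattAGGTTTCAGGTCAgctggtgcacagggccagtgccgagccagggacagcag
The Acot2 and Acot1 windows held neither motif, and a match or its absence says nothing about binding.

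The BG replicate 5 array of LD stood apart from the others. It was the lowest of its group in 11 of 11 member probe sets. Its values scattered around the group mean with an SD of 0.356 over all probe sets, against 0.149 to 0.254 in the other LD arrays. Its mean over 9 macrophage markers was 10.05, against 7.88 to 8.50 in the other 4 BG arrays, and its mean over 9 slow and oxidative fibre markers was 13.01, the highest of all arrays. The part of these differences in the member values was not tested. Results in LD are therefore given with this array and, where it matters, without it. The array also enters the error of the comparisons in TN, since all arrays were fitted in 1 model. The standard error of Pdk4 in FC vs. BG of TN, for example, was 0.461 with it and 0.216 without it. The labelled tissues carried their markers, with means of 9 fast muscle fibre markers of 14.0 to 14.2 in LD and 12.4 to 13.6 in TN.

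To find out which members moved with flight, LD of BF mice was compared with LD of BG mice, the group kept in the same kind of habitat. Acot2, Acot1, Plin5 and Acads were higher in BF than in BG. Acot2 and Acot1 are thioesterases that release free fatty acids from acyl-CoA, in the mitochondrion and in the cytosol, and Plin5 coats lipid droplets and tethers them to mitochondria. Acads is the short-chain acyl-CoA dehydrogenase of beta oxidation. The other 7 probe sets did not pass an adjusted p of 0.05 (limma, Benjamini-Hochberg over all probe sets). The median log2 change was 0.47 over the 11 member probe sets and -0.03 over all probe sets, and 10.2% of all probe sets passed in this comparison. The members were chosen with earlier results of these data known. Here and below, their medians and counts therefore describe them and test nothing about the list. Without BG replicate 5, Acot2, Plin5 and Acads passed and Acot1 did not, where 17.1% of all probe sets passed. The member median was then 0.32. Markers of other cells and of fibre types were read beside these changes. Of 9 macrophage markers 0 passed, but 7 had an unadjusted p under 0.05 and their median was -0.71 (1 and -0.32 without BG replicate 5). Their mean level was 7.14 to 8.72 in BF and 7.88 to 10.05 in BG. Of 8 endothelial markers 2 were higher, Cdh5 (0.46) and Tie1 (0.60), and 0 were lower. The median of the 8 was 0.019 (0.078 without BG replicate 5, where the same 2 were higher). The median of 9 slow and oxidative fibre markers was -0.37 (-0.14 without BG replicate 5), and 0 passed in either fit. Among 9 fast fibre markers 0 passed, with a median of 0.036 (1 higher and 0.055 without BG replicate 5). The part of other cells and of fibre makeup in the member changes was not tested.

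Acot2 values were 7.63, 7.96, 8.73, 8.44 and 8.36 in the 5 BF arrays. In FC they were 6.26, 6.53, 5.99, 6.42 and 7.07, and in BG 6.602, 7.65, 6.64, 6.16 and 6.12. All BF arrays lay above all FC arrays, and a single BG array, replicate 2, reached the lowest BF array. In BF vs. BG the change of Acot2 was 1.59 (standard error 0.248, 3.01-fold, adjusted p = 0.000416), and in BF vs. FC it was 1.77 (standard error 0.248, 3.41-fold, adjusted p = 0.000286). Without BG replicate 5 the difference from BG was 1.46 (adjusted p = 0.000581). It passed in both comparisons without any single array and under every other processing tried.

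Acot1, whose gene directly follows Acot2 on the chromosome, showed more overlap. Its values were 7.30, 7.87, 8.10, 7.59 and 7.45 in BF. They were 5.97, 5.82, 5.98, 6.28 and 7.55 in FC, and 6.37, 7.82, 6.996, 6.32 and 6.09 in BG. FC replicate 5 and BG replicate 2 lay within the range of BF, and the other arrays of FC and BG lay below it. Acot1 was higher in BF than in FC by 1.34 (standard error 0.290, 2.54-fold, adjusted p = 0.0101), and this held without any single array. The BF vs. BG change was 0.94 (standard error 0.290, adjusted p = 0.0411). That call was lost without BF replicate 2, 3, 4 or 5 or BG replicate 1, 4 or 5, with adjusted p between 0.0576 and 0.109. A further probe set, whose annotation names Acot2 and Acot1 together and which therefore cannot be assigned to either, changed by 1.10 in BF vs. BG (adjusted p = 0.00526) and by 1.55 in BF vs. FC (adjusted p = 0.000680).

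Plin5 values were 8.94, 9.43, 9.69, 9.99 and 10.06 in BF. They were 7.35, 7.73, 7.87, 8.60 and 8.73 in FC, and 7.75, 9.04, 9.51, 8.63 and 6.59 in BG. All BF arrays were above all FC arrays, while BG covered the widest range and BG replicates 2 and 3 overlapped with BF. Plin5 changed by 1.32 in BF vs. BG (standard error 0.380, 2.49-fold, adjusted p = 0.0304) and by 1.57 in BF vs. FC (standard error 0.380, 2.96-fold, adjusted p = 0.0205). Without BG replicate 5 the difference from BG was 0.89 (adjusted p = 0.0462). The call against BG was lost without BF replicate 3, 4 or 5 or BG replicate 1, with adjusted p between 0.0601 and 0.0896. The call against FC was lost without BF replicate 4 or 5 or FC replicate 1, 2 or 3, with adjusted p between 0.0507 and 0.0640.

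Acads values were 9.31, 9.32, 9.22, 9.79 and 9.74 in BF. They were 8.94, 9.14, 9.13, 9.10 and 9.29 in FC, and 8.92, 9.19, 9.30, 8.88 and 8.75 in BG. BF replicates 4 and 5 stood above every other array, and of the BF arrays replicate 3 alone overlapped with the highest ground arrays. Acads changed by 0.47 in BF vs. BG (standard error 0.122, 1.38-fold, adjusted p = 0.0184). The difference from FC was 0.35 and did not pass (adjusted p = 0.122). The call against BG was lost without BF replicate 4 or 5 or BG replicate 1, with adjusted p between 0.0511 and 0.0622.

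**Figure D1:**
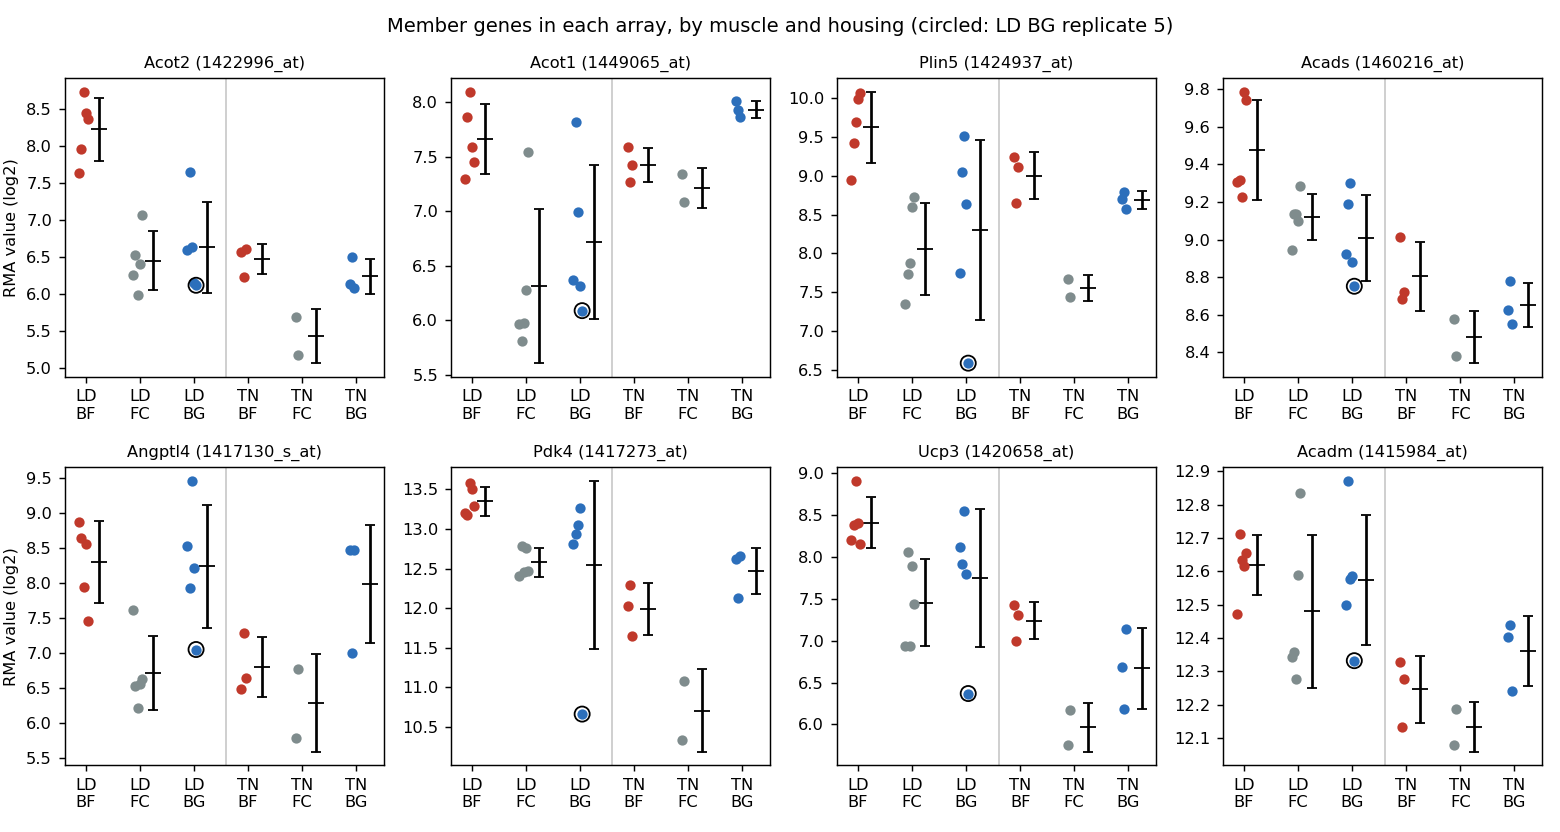
Log2 expression of 8 member probe sets in each array, by muscle and housing; every point is 1 array, and the bar beside it is the group mean with its SD. The 5 flown LD arrays of Acot2 lie above all facility arrays, and the circled LD BG replicate 5 array is the lowest of its group in every panel.

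Acadm and Hadha, the other enzymes of beta oxidation on the list, stayed close between the groups. Acadm is the medium-chain acyl-CoA dehydrogenase, and Hadha is the alpha subunit of the mitochondrial trifunctional protein, which handles long chains. Acadm averaged 12.6 ± 0.0901 in BF, 12.5 ± 0.231 in FC and 12.6 ± 0.196 in BG (SD, n = 5 each). Hadha averaged 10.8 ± 0.330 in BF, 10.9 ± 0.335 in FC and 10.8 ± 0.356 in BG. The interval (95%) of the BF vs. BG difference ran from -0.17 to 0.26 for Acadm and from -0.32 to 0.41 for Hadha, so that changes near 2-fold lay outside it.

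Pdk4, Ucp3 and Angptl4 did not pass in BF vs. BG. Pdk4, the kinase that switches off pyruvate dehydrogenase and so spares glucose, had 13.20, 13.18, 13.58, 13.50 and 13.29 in BF. It had 12.41, 12.78, 12.46, 12.76 and 12.47 in FC, and 12.81, 12.93, 13.05, 13.27 and 10.66 in BG. Every BF array was above every FC array, and BG replicate 5 was far below all other LD arrays. The difference was 0.81 from BG (standard error 0.319, adjusted p = 0.114) and 0.77 from FC (standard error 0.319, adjusted p = 0.216). Without BG replicate 5 the difference from BG was 0.34 (adjusted p = 0.152), and that from FC passed with the same change and a smaller standard error (0.149, adjusted p = 0.00420).

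The 2 probe sets of Ucp3, the mitochondrial uncoupling protein of muscle, differed in their pattern. With 1420658_at, values in BF were 8.20, 8.39, 8.91, 8.41 and 8.15, those in FC were 6.94, 8.05, 6.94, 7.89 and 7.44, and those in BG were 8.12, 7.92, 8.55, 7.79 and 6.37. All BF arrays lay above all FC arrays and overlapped with BG. The difference was 0.66 from BG (adjusted p = 0.170) and 0.96 from FC (adjusted p = 0.0819), and that from FC passed without BG replicate 5 (adjusted p = 0.0127). Without that array the difference from BG was 0.32 (adjusted p = 0.378). With 1420657_at, the differences were 0.13 from BG (adjusted p = 0.874) and -0.18 from FC (adjusted p = 0.903). The difference from BG turned to -0.36 (adjusted p = 0.409) without BG replicate 5.

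LD of BF mice was also set against LD of FC mice, which differed from BF in habitat as well as in flight. Acot2, Acot1, Plin5 and the 1417130_s_at probe set of Angptl4 were higher in BF, all 4 by more than 2-fold, where 3.66% of all probe sets passed. The median was 0.77 over the 11 member probe sets and -0.03 over all probe sets. The BF arrays are shared with the comparison above, so that neither is a repeat of the other. Without BG replicate 5, Pdk4 and Ucp3 (1420658_at) passed as well, where 4.98% of all probe sets passed. Beside these changes, the mean of 7 adipocyte markers ran from 7.68 to 9.68 in BF, from 7.04 to 8.88 in FC and from 8.11 to 8.71 in BG. Their median change in BF vs. FC was 0.51, and 0 of the 7 passed (1 at an unadjusted p under 0.05 and 0 without moderation). The part of adipocytes in these changes was not tested.

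Angptl4, a secreted inhibitor of lipoprotein lipase, overlapped between BF and BG and was lower in FC. The 1417130_s_at probe set had 8.87, 8.65, 7.95, 8.56 and 7.46 in BF. It had 7.61, 6.54, 6.22, 6.56 and 6.63 in FC, and 8.52, 7.93, 9.46, 8.21 and 7.05 in BG. BF and BG overlapped, and 4 of the 5 FC arrays lay below every BF and BG array. The difference was 0.06 for BF vs. BG (standard error 0.379, interval from -0.72 to 0.85, adjusted p = 0.943; -0.23 without BG replicate 5) and 1.59 for BF vs. FC (adjusted p = 0.0192). The call against FC was lost without BF replicate 4 (adjusted p = 0.0555) or FC replicate 3 (adjusted p = 0.0634). The second Angptl4 probe set, 1453410_at, was among the dimmest on the array (percentile 0.844 of all probe sets), with values between 2.596 and 3.18, and passed in 0 of 9 comparisons.

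**Figure D2:**
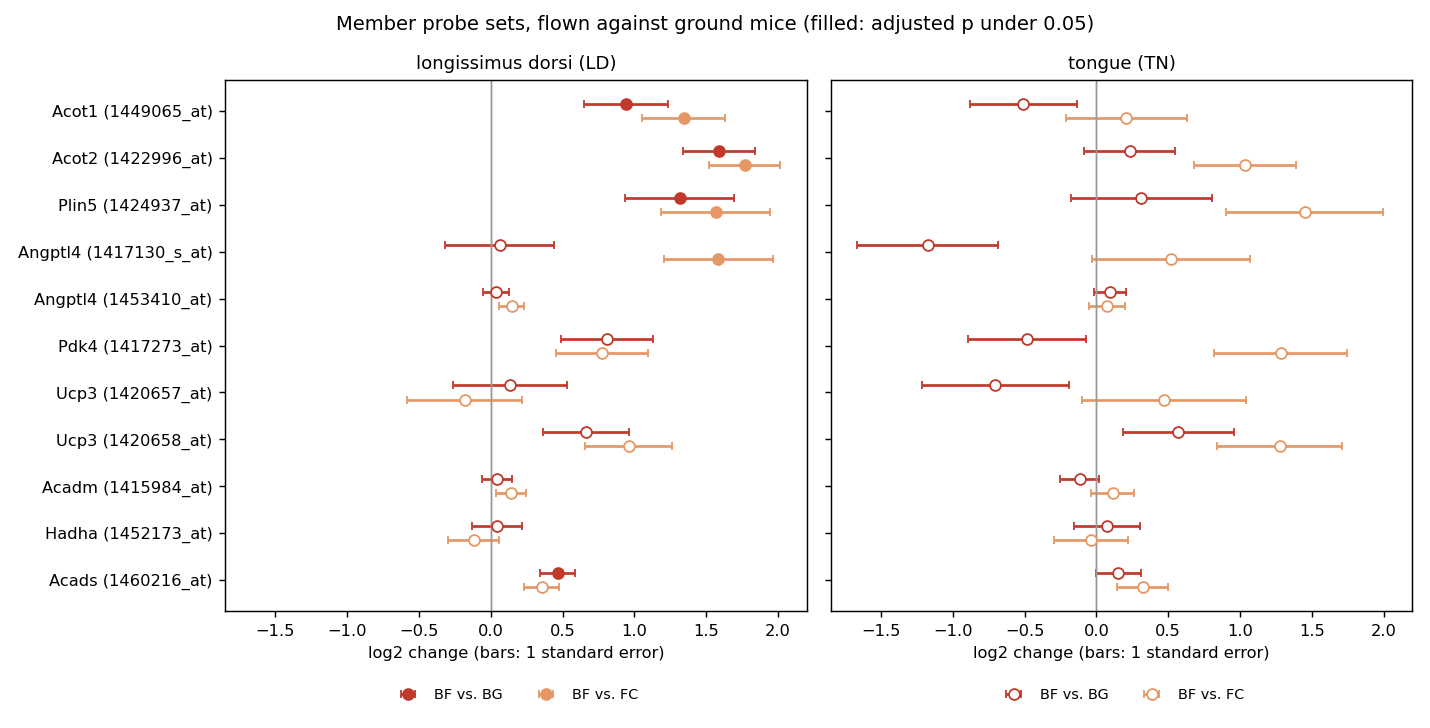
Log2 change of the 11 member probe sets in flown mice against both ground groups, in LD (left) and TN (right); points are limma estimates, bars are 1 standard error, and filled points passed an adjusted p of 0.05. Acot1, Acot2 and Plin5 are filled against both ground groups in LD, Acads against BG alone and Angptl4 (1417130_s_at) against FC alone, and none is filled in TN.

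Comparing LD of FC with LD of BG mice showed what the habitat went with on the ground. Angptl4 (1417130_s_at) was lower in FC by 1.52 (standard error 0.379, 2.87-fold, adjusted p = 0.0162) and was the 1 member probe set of 11 that passed, where 8.95% of all probe sets passed. Without BG replicate 5 it was lower by 1.82 (adjusted p = 0.00255) and again the 1 that passed, where 16.2% of all probe sets passed. Without FC replicate 3 the adjusted p was 0.0510. The median was -0.11 over the member probe sets, and -0.31 without BG replicate 5. Pdk4 differed by 0.03 with that array and by -0.44 without it (adjusted p = 0.0628), and Ucp3 (1420658_at) by -0.30 and -0.64 (adjusted p = 0.0648 without it). Of 9 macrophage markers 1 was lower in FC, Lyz2 (-1.14, adjusted p = 0.0195). Their median was -0.67, with 4 of 9 at an unadjusted p under 0.05, and -0.28, with 3 of 9, without BG replicate 5. The median of 7 adipocyte markers was -0.49, and 0 passed (1 at an unadjusted p under 0.05 and 0 without moderation). The part of these cells in the Angptl4 difference was not tested. Acot2 differed between the ground groups by -0.18 (interval from -0.69 to 0.33) and Acot1 by -0.40 (interval from -1.004 to 0.20).

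In TN, which served as the in-flight comparison muscle, 0 of 11 member probe sets passed in BF vs. BG, where 0.826% of all probe sets passed. Angptl4 (1417130_s_at) was the 1 probe set with an unadjusted p under 0.05, and 0 passed in the fit without moderation of the variances. The median was 0.07 over the members and 0.02 over all probe sets. Acot2 had 6.57, 6.24 and 6.61 in BF and 6.14, 6.51 and 6.08 in BG, a difference of 0.23 (interval from -0.43 to 0.89). Acot1 had 7.59, 7.27 and 7.42 in BF and 8.01, 7.93 and 7.86 in BG. All 3 BF arrays were below the BG arrays, and the difference of -0.51 did not pass (adjusted p = 0.555). Arrays of the same number deviated together in these 2 groups, and with the number as a block in a fit of these 6 arrays, an alternative chosen after seeing the data, Acot1 passed (adjusted p = 0.0411). It was the 1 member probe set of 11 that did, where 1117 of all probe sets passed, against 187 in the model of both muscles without the block. Ucp3 (1420658_at) was 0.57 higher in BF and had an adjusted p of 0.0589 in that fit. Angptl4 had 6.49, 7.29 and 6.64 in BF and 8.47, 7.01 and 8.47 in BG, a difference of -1.18 (adjusted p = 0.246).

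In TN of BF against FC mice, 0 of 11 passed, where 2.24% of all probe sets passed. The values of 10 of the 11 probe sets were higher in BF, with a median of 0.47. Acot2, Plin5, Pdk4 and Ucp3 (1420658_at) had an unadjusted p under 0.05, and 0 passed in the fit without moderation. Plin5 had 9.24, 8.65 and 9.11 in BF and 7.67 and 7.43 in FC. The BF arrays were all above the FC arrays, by 1.45 on average (standard error 0.548, adjusted p = 0.182). Pdk4 was 1.28 (adjusted p = 0.159), Ucp3 1.28 (adjusted p = 0.131) and Acot2 1.03 (adjusted p = 0.140) higher in the BF means. When TN was fitted alone, these 4 passed, with adjusted p from 0.00324 for Plin5 to 0.0211 for Ucp3. The 2.24% above was counted in the model of both muscles and not in this fit. The 4 calls therefore stand without a share over all probe sets and are no result about the members as a group. In the model of both muscles without LD BG replicate 5, 2 of 11 passed, where 3.69% of all probe sets passed. They were Pdk4 (adjusted p = 0.00205) and Ucp3 (1420658_at, adjusted p = 0.0283). Beside these values, 1 of 9 fast fibre markers was higher in BF with all arrays, Pvalb (1.58, adjusted p = 0.0386), and 0 were lower. The median was 0.10 over the 9, and 0.17 over 9 slow and oxidative fibre markers, of which 0 passed. The part of fibre makeup in these values was not tested.

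Pdk4 was the 1 member probe set that passed in TN of FC against BG mice, where 9.45% of all probe sets passed. It had 10.34 and 11.07 in FC and 12.62, 12.13 and 12.66 in BG. Both FC arrays lay below every BG array, and the mean difference was -1.76 (standard error 0.461, 3.40-fold, adjusted p = 0.0191). The call was lost without FC replicate 1 (adjusted p = 0.275) or BG replicate 1 (adjusted p = 0.0547). Without LD BG replicate 5 it had an adjusted p of 6.61e-05. Angptl4 (1417130_s_at) had 5.80 and 6.78 in FC and 8.47, 7.01 and 8.47 in BG, and its difference of -1.70 did not pass (adjusted p = 0.0530). It passed under 8 of 29 alternatives, among them the fit without LD BG replicate 5 (adjusted p = 0.0274). In that fit 12.3% of all probe sets passed. The member median was -0.72, against 0.02 over all probe sets, with 2 arrays in FC. The 9 slow and oxidative fibre markers had a median of -0.83, with 0 passing and 4 at an unadjusted p under 0.05 (0 without moderation). Their mean level was 7.46 to 7.75 in FC and 7.43 to 9.74 in BG. Of 9 fast fibre markers 2 were higher in FC, the myosin heavy chains Myh4 (0.43) and Myh1 (0.46). The median of the 9 was 0.08, and their mean level was 12.67 to 12.69 in FC and 12.44 to 13.26 in BG. The part of fibre makeup in the member values was not tested.

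The change with flight was then compared between the muscles. In BF vs. BG, 0 of 11 member probe sets differed between LD and TN, where 0.172% of all probe sets did, and 0 passed without moderation. The change of Acot2 was larger in LD by 1.36 (interval from 0.52 to 2.20, adjusted p = 0.180) and that of Acot1 by 1.45 (interval from 0.47 to 2.43, adjusted p = 0.220). These and Pdk4 (1.29, adjusted p = 0.320) were the 3 with an unadjusted p under 0.05. In BF vs. FC, 0 of 11 differed, where 0.0663% of all probe sets did, Acot1 being the 1 with an unadjusted p under 0.05 (1.13, adjusted p = 0.591), and 0 passed without moderation. A change that passed in LD and not in TN was therefore not shown to differ between the muscles.

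The muscles themselves differed in most probe sets of the array. Over the mean of the 3 housings, 7 of 11 member probe sets were higher and 1 was lower in LD than in TN. This was near the share over all probe sets, of which 69.8% passed, 10247 higher and 5536 lower. The median was 0.56 over the members and 0.14 over all probe sets. Acot2 was higher in LD by 1.05 (standard error 0.173, adjusted p = 1.3e-05), whereas its neighbour Acot1 was lower (-0.63, standard error 0.203, adjusted p = 0.00925). The probe set that names both genes gave -0.08 (adjusted p = 0.659). Ucp3 was higher in LD by 1.25 with 1420658_at and by 1.47 with 1420657_at, and Pdk4 by 1.10 (adjusted p = 0.000156). Acads (0.56), Acadm (0.31) and Angptl4 (0.72, 1417130_s_at) were higher too, and Plin5 (0.25, adjusted p = 0.415) and Hadha (0.25, adjusted p = 0.0804) did not pass. The Angptl4 call was lost without TN FC replicate 1 (adjusted p = 0.106) or TN BG replicate 2 (adjusted p = 0.0603). Cell makeup differed between the muscles at the same time. Means of 7 oral epithelium markers were 4.94 to 5.27 in LD and 12.03 to 12.36 in TN, those of 7 adipocyte markers 7.04 to 9.68 in LD and 5.83 to 7.18 in TN, and those of 9 slow and oxidative fibre markers 10.4 to 13.01 in LD and 7.38 to 9.74 in TN. Of the 7 adipocyte markers 5 were higher in LD and 1 was lower, Cidea (-1.50), with a median of 1.58. Adipoq, the adipocyte hormone adiponectin, was higher in LD by 5.93, and Krt13, a keratin of the oral epithelium, was lower (-10.1). The part of cell makeup in the member differences was not tested.

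**Figure D3:**
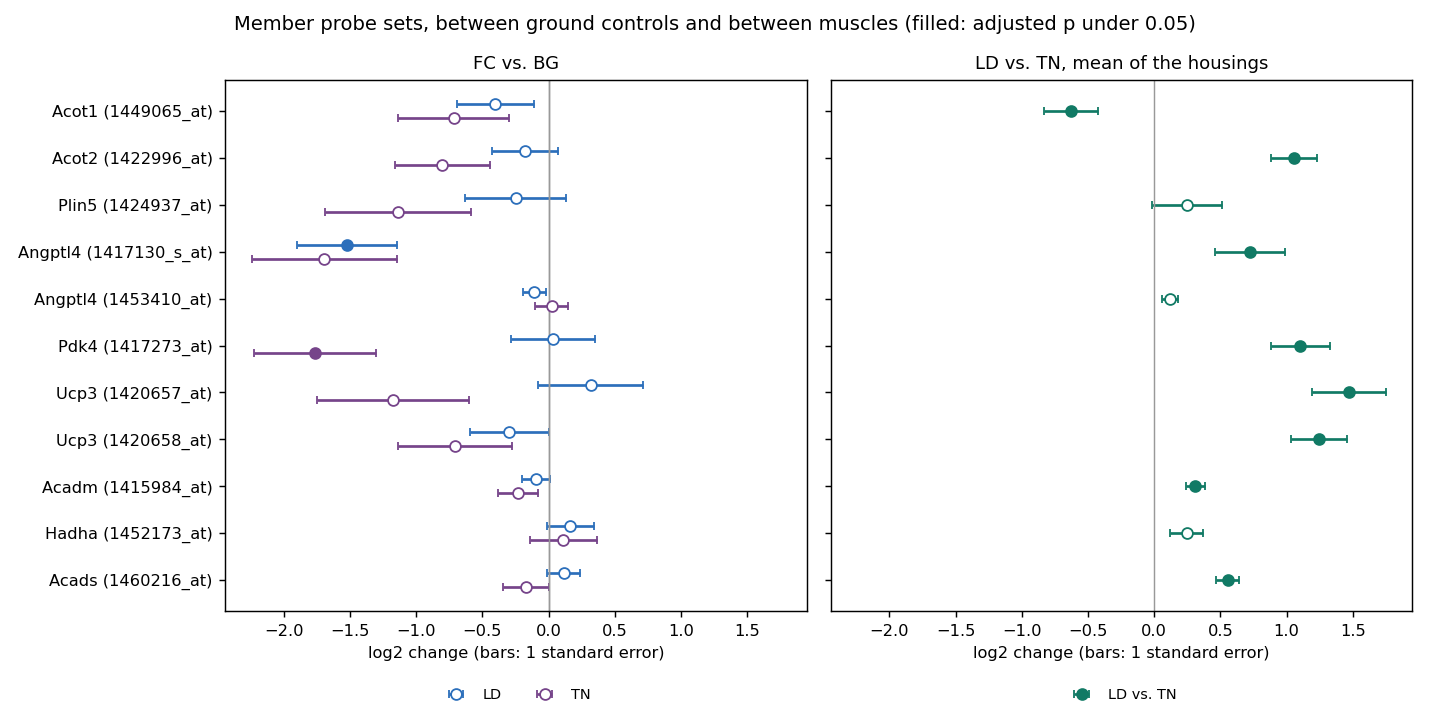
Log2 change of the 11 member probe sets between the ground groups FC and BG in each muscle (left) and between LD and TN over the mean of the housings (right); points are limma estimates, bars are 1 standard error, and filled points passed an adjusted p of 0.05. Angptl4 (1417130_s_at) is filled in LD and Pdk4 in TN on the left, and Acot1 is the filled point below 0 on the right.

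Across the 15 LD arrays the members did not all follow Acot2. Pearson r with Acot2 was 0.89 for Acot1, 0.81 for Plin5, 0.76 for Acads, 0.69 for Ucp3 (1420658_at) and 0.62 for Pdk4, and 0.24 for Hadha and 0.01 for Ucp3 (1420657_at). Over the 8 TN arrays it was 0.96 for Plin5, 0.85 for Acads and 0.50 for Acot1. The genes outside the list whose values were most like Acot2 over the LD arrays were Eif3a (0.90), Fbxo32 (0.90), Bcas3 (0.90), Abcb1a (0.89) and Csnk2a1 (0.89). Fbxo32 encodes atrogin-1, a ubiquitin ligase of muscle, and Eif3a a subunit of a translation initiation factor. These arrays share their 3 groups and their normalization, so that r describes them and tests nothing.

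Other enzymes of mitochondrial beta oxidation were set beside the members. Of 16 measured, 0 passed in LD in BF vs. BG, with a median of -0.0034, and 0 passed in BF vs. FC, with a median of 0.13. Of all probe sets 10.2% and 3.66% passed. At an unadjusted p under 0.05 the list counts were 2 and 3, and without moderation of the variances 0 in each comparison. Without BG replicate 5, 1 was lower in BF vs. BG and 1 was higher in BF vs. FC, where 17.1% and 4.98% of all probe sets passed. In FC vs. BG of LD 0 passed with that array (8.95% of all probe sets) and 4 were lower without it (16.2%). The 16 include Cpt2 and Slc25a20, which carry acyl groups into the mitochondrion, and Acadl, Acadvl and Hadhb. Between the muscles 12 of the 16 were higher in LD and 0 lower, where 69.8% of all probe sets passed in either direction, led by Acadsb (1.06), Eci1 (0.93) and Decr1 (0.65). In TN of FC against BG mice 2 of 16 were lower, where 9.45% of all probe sets passed, Echs1 (-1.13, adjusted p = 0.0320) and Decr1 (-0.72, adjusted p = 0.0267).

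Among genes of fatty acid uptake, storage and lipolysis, 5 of 16 were higher and 1 was lower in LD of BF than of BG mice, where 10.2% of all probe sets passed. The list median was 0.13. The counts were the same without BG replicate 5, where 17.1% of all probe sets passed. Pnpla2, the triglyceride lipase ATGL of lipid droplets, averaged 10.5 ± 0.197 in BF, 9.72 ± 0.141 in FC and 9.53 ± 0.287 in BG (SD, n = 5 each). Its change was 0.98 in BF vs. BG (adjusted p = 0.000146) and 0.79 in BF vs. FC (adjusted p = 0.00184). In TN it averaged 9.86 ± 0.326 in BF (n = 3), 9.35 ± 0.249 in FC (n = 2) and 9.01 ± 0.122 in BG (n = 3), and changed by 0.86 in BF vs. BG (adjusted p = 0.0211). Lpin1, a phosphatidate phosphatase that also acts as a coactivator, was higher in LD of BF than of BG mice by 0.96 (adjusted p = 0.000275). It was also higher in FC than in BG, by 0.55 (adjusted p = 0.0191). The same held for Plin4, another lipid droplet coat protein, with 0.90 for BF vs. BG (adjusted p = 0.00658) and 0.69 for FC vs. BG (adjusted p = 0.0343). Dgat2, which makes triglyceride (0.80, adjusted p = 0.0167), and the fatty acid transporter Slc27a1 (0.53, adjusted p = 0.00944) were higher too, and Abhd5, the coactivator of Pnpla2, was lower (-0.29, adjusted p = 0.0348). In BF vs. FC 3 of the 16 were higher and 0 lower, where 3.66% of all probe sets passed. They were Pnpla2, Slc27a1 (0.55, adjusted p = 0.0147) and Cd36 (0.73, adjusted p = 0.0272). Lpin1, Plin4, Dgat2 and Abhd5 did not pass against FC. Cd36 was lower in FC than in BG (-0.71, adjusted p = 0.0209).

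**Figure D4:**
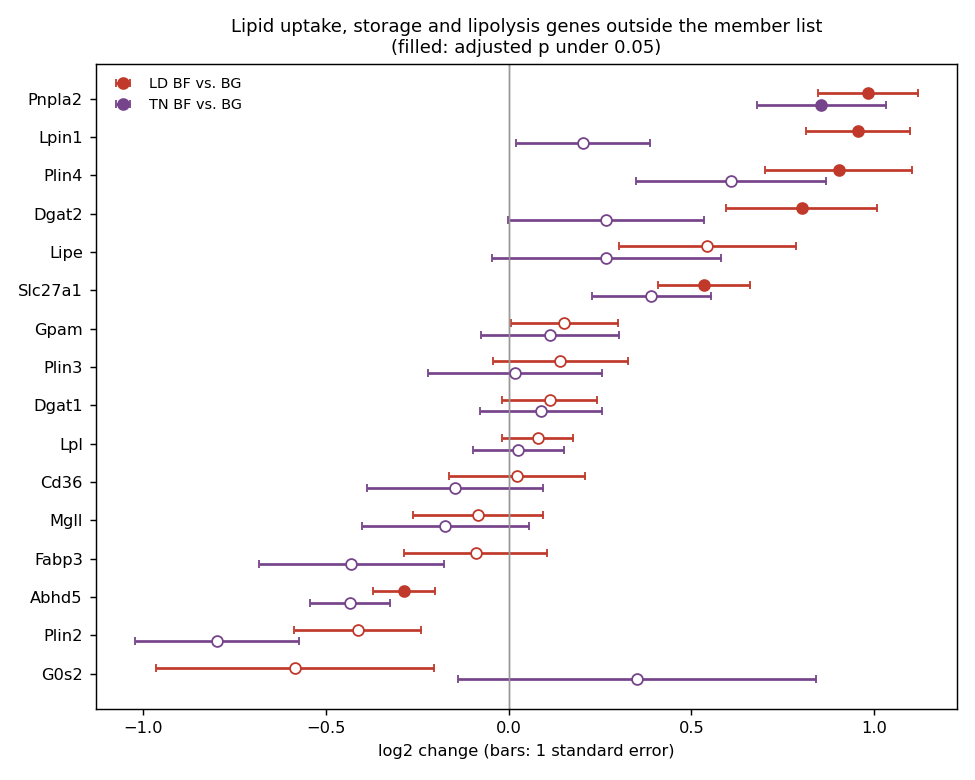
Log2 change in BF vs. BG of 16 genes of fatty acid uptake, storage and lipolysis that are not members, in LD and TN; points are limma estimates, bars are 1 standard error, and filled points passed an adjusted p of 0.05. Pnpla2 is filled in both muscles, and Lpin1, Plin4, Dgat2, Slc27a1 and Abhd5 in LD alone.

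The receptors and their coregulators were read as well. Of 10 measured, 0 passed in LD in BF vs. BG, with a median of -0.0029 (1 at an unadjusted p under 0.05 and 0 without moderation). In BF vs. FC 4 of the 10 were lower, where 3.66% of all probe sets passed: the receptor Ppara (-1.04, adjusted p = 0.0268), the coactivator Ppargc1a (-0.78, adjusted p = 0.00377), the corepressor Nrip1 (-0.86, adjusted p = 0.0399) and the orphan receptor Esrra (-0.44, adjusted p = 0.0164). In FC vs. BG 5 of the 10 were higher, where 8.95% of all probe sets passed. Without BG replicate 5 there were 4, where 16.2% passed. Ppargc1a (0.61), Nrip1 (1.22) and Esrra (0.34) were among the 5. Of 9 measured genes of malonyl-CoA and pyruvate dehydrogenase control 1 was higher in BF than in BG. This was near the share of all probe sets that passed, 10.2%. The gene was Acacb, which makes the malonyl-CoA that blocks Cpt1 (0.53, adjusted p = 0.0161). Without BG replicate 5, 1 of the 9 was higher and 1 lower, where 17.1% of all probe sets passed. Acacb was also higher in FC than in BG, by 0.58 (adjusted p = 0.0111). Of 11 other known PPAR targets 1 was higher in BF than in BG, the peroxisomal enzyme Cat (0.65, adjusted p = 0.00253). This too was near the 10.2% of all probe sets. Without BG replicate 5 there were 2, where 17.1% passed. In BF vs. FC 1 of the 11 was higher, Ehhadh of peroxisomal beta oxidation (0.94, adjusted p = 0.00784), where 3.66% passed.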

How the data were processed

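Total RNA of LD and TN was labelled and hybridized to Affymetrix mouse arrays. The authors turned the scanned intensities into deposited log2 values per probe set with RMA (background correction, quantile normalization and summary over probes) in Partek. These values, from 2.244 to 14.5, were used as deposited, with no filter. The number of arrays limits the precision.

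The labels gave each array its muscle and housing. A single linear model of 6 groups, with limma 3.58.1 (lmFit, eBayes; R 4.3.3) and 17 residual degrees of freedom, took in all 23 arrays. Benjamini-Hochberg adjustment ran over the 22626 probe sets of each of the 9 comparisons, and an adjusted p under 0.05 passed. The procedure was tested on simulated data. The annotation names 1 gene for 20380 probe sets, several for 691 and none for 1555. In the other lists a gene counted by its brightest probe set. Genes named from these lists were up to 3 with the smallest adjusted p in BF vs. BG or LD vs. TN; others named from a count of 5 or fewer were chosen after their values were seen. The members and lists were chosen with earlier results of these data known. Alternatives were each muscle fitted alone, no moderation, moderation with trend and robust, brighter probe sets only, quantile normalization within each muscle, array weights, the replicate number as a block and leaving out each array. The deviations of arrays with the same replicate number from their group means correlated by 0.167 to 0.383 in the 3 pairs of BF and BG in TN, which were therefore also fitted as pairs. Nothing states that arrays came from repeated extractions of 1 mouse, and the p-values measure the spread between these samples.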

Additional observations from a re-analysis of the deposited data

Results flagged for a closer look

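Of 33 groups of member values in LD, 3 had an array far from the rest by Dixon's criterion, which chance gives in about 1 of 20 groups. For Pdk4, BG replicate 5 had 10.7, while the nearest array of its group had 12.8. For Acot1, FC replicate 5 had 7.55, while the nearest had 6.28. For the dim Angptl4 probe set 1453410_at, BF replicate 2 had 3.18, while the nearest had 2.94.

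Cat, a PPAR target outside the member list, differed between the muscles in BF vs. BG by 1.05 (interval from 0.63 to 1.48, limma adjusted p = 0.0382). It averaged 10.8 ± 0.198 in BF and 10.2 ± 0.311 in BG in LD (SD, n = 5 each), and 9.56 ± 0.0718 in BF and 9.96 ± 0.0884 in BG in TN (SD, n = 3 each).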

How the results depend on the processing

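Of 99 member results, 33 passed under at least 1 setting, and 0 of these changed direction. Of the 66 that never passed, 21 changed sign under at least 1 alternative, all with a change of 0.317 or less in size before. Of 18 that passed, 10 passed under every alternative, 8 were lost under at least 1, and 15 others passed only under an alternative. In LD, Acot2 in BF vs. BG and BF vs. FC and Acot1 in BF vs. FC held throughout. In BF vs. BG of LD, 4 members passed, but 2 when LD was fitted alone, 2 without moderation, 2 with trend and robust moderation, and 1 to 4 without single arrays (1 without BF replicate 4 or 5 or BG replicate 1). In BF vs. FC of LD, 4 passed, but 2 without moderation, 7 with array weights, and 2 to 6 without single arrays (2 without BF replicate 4 or FC replicate 3). In FC vs. BG of LD, 1 passed, and 0 to 1 without single arrays (0 without FC replicate 3). In TN, 0 passed in BF vs. BG, but 1 with array weights, 1 with TN BF and BG fitted alone with the replicate number as a block, and 0 without any single array. In BF vs. FC of TN 0 passed, but 4 when TN was fitted alone, 4 with array weights, and 0 to 2 without single arrays (2 without LD BG replicate 5). In FC vs. BG of TN 1 passed, but 2 among brighter probe sets, 4 with array weights, and 0 to 3 without single arrays (0 without TN BG replicate 1 or TN FC replicate 1, 3 without LD BG replicate 5). In LD vs. TN 8 passed, and 7 to 9 without single arrays. The share of all probe sets that passed moved with the setting too. In BF vs. BG of LD, for example, it was 10.2% with all arrays and 17.1% without BG replicate 5. The member counts in this paragraph are given without that share, so that a change in them is no result about the members. The cause of these changes was not tested.

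With the replicate number as a block, 2 members passed in FC vs. BG of TN (Pdk4, and Angptl4 with an adjusted p of 0.0423), and Acot1 in BF vs. BG of LD was lost (adjusted p = 0.0557). In LD, arrays of 1 number correlated in their deviations over 0.1 in 2 of 5 pairs of BF with BG, 4 of 5 of BF with FC and 2 of 5 of FC with BG, and in TN in 0 of 2 pairs of each comparison with FC, so the numbers were not taken as pairs there.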
